A study of Chlorocebus sabaeus with 45 samples.

Results

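Platelets change shape, spread and pull on a clot through a cytoskeleton of actin filaments, nonmuscle myosin and a ring of microtubules, and they carry RNA for these proteins from the megakaryocyte that shed them. Myosin pulls on actin once its regulatory light chain is phosphorylated, tropomyosin and caldesmon set how myosin meets the filament, and vinculin and filamin join the filament to adhesion receptors at the membrane. The microtubule ring, called the marginal band, keeps the resting platelet flat and is built in good part from a beta tubulin that is made in the megakaryocyte lineage. Several of the same actin genes are best known from smooth muscle, where serum response factor (SRF) and its coactivators drive them.

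The 10 genes described here were MYL9, MYLK, CALD1, TAGLN, ACTA2 and TPM1 of the actomyosin system, the tubulin genes TUBB1 and TUBA4A, and the linker genes VCL and FLNA, out of 33994 gene rows in the deposited tables. They were picked by symbol, and the set was chosen from values of these same time contrasts in whole blood, so their levels and changes are a description. The number of them past the limma threshold is given as part of that description, with no p-value for any of them. All 10 were among the 18753 genes that passed the filter on low counts, more than 0.5 CPM (fragments scaled to the library total) in at least 3 libraries. ACTA2 did so through day 3, where 7 libraries were over the minimum against 0 on day 0 and 1 on day 14, so its place among the genes tested was set by the day on which it was high.

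The blood came from 15 wild-born juvenile male vervet monkeys of St. Kitts, each from a different troop, which were trapped and then housed singly under a quarantine routine that the study used as a psychosocial stressor. PAXgene whole blood was drawn from each animal on days 0, 3 and 14. Sample labels are the source of these days, and the study's other descriptions do not give the same day throughout for the later draws. Field sampling on day 0 used ketamine with xylazine as sedation, whereas sampling in the facility used dexmedetomidine with midazolam, so sedation, place and time cannot be told apart in any change from day 0. There was no group of animals that stayed undisturbed.

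The 45 libraries held between 13216280 and 31469337 fragments on genes. In 2 of them, day 0 of animal 9 and day 14 of animal 4, 30752 and 31402 genes were above 0, while the other 43 libraries had between 20008 and 26792. Calls were also compared with those of a fit that had the study's RNA integrity number as a covariate. This number was higher on day 14 than on day 0 in most animals. For a call lost in that fit, RNA integrity and time therefore cannot be told apart. Levels are deposited FPKM, fragments scaled to gene length and to the library's total on genes. Changes are log2 fold changes of FPKM after TMM scaling (a trimmed mean of log ratios sets 1 factor per library), with 0.1 added before the logarithm, which understates the change of genes of low level. The scale matters for day 14: without TMM the genes tested had a median log2 fold change of −0.36 from day 0 to day 14 and −0.35 from day 3 to day 14 (with TMM it was −0.02 for both), so changes on day 14 are read against the typical gene.

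Per unit of length, FLNA was the most abundant of the 10 (146 ± 42.4 FPKM, mean and SD of the 15 animals' means), followed by TUBA4A (133 ± 44.7), TUBB1 (114 ± 36.5), VCL (36.8 ± 8.83), TPM1 (11.9 ± 1.31), MYL9 (10.7 ± 4.77), TAGLN, CALD1, MYLK (0.944 ± 0.465) and ACTA2 (0.246 ± 0.239). The first 3 genes in this order lay within 1 SD of their neighbour, and so did TPM1 and MYL9, MYL9 and TAGLN, and TAGLN and CALD1. VCL exceeded TPM1 in 15 of 15 animals, and CALD1 exceeded MYLK in all 15. FLNA, TUBA4A and TUBB1 each had a mean above that of at least 97.3% of the genes tested, whereas ACTA2 was above 14.5% of them.

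On day 3 vs. day 0, 7 of the 10 genes passed the limma threshold of an adjusted p-value under 0.05 and all 7 were higher on day 3 (MYL9, MYLK, CALD1, TAGLN, ACTA2, TUBB1 and FLNA), or 6 besides ACTA2, which passed the filter through day 3. Over all genes tested, 12.2% passed, 6.01% higher and 6.19% lower, and since the set was chosen on this contrast nothing is read from the count. Without TMM 7 again passed, but FLNA was lost and TUBA4A added (8.51% of all genes), and with the animal as a block TUBA4A made 8 (19.2% of all genes). Fewer cells of a type and less RNA per cell cannot be told apart in whole blood. The median log2 fold change of the 10 was 1.28, against 0.01 over all genes tested. From day 0 to day 14, 4 genes passed and were higher (MYL9, TPM1, TUBB1 and TUBA4A), beside 36.0% of all genes, 18.8% higher and 17.3% lower. The median of the 10 was then 0.59, and the block added CALD1 (44.0% of all genes). Without TMM, 2 of the 10 passed here, TUBA4A higher and VCL lower, and over all genes 1460 were higher and 7830 lower. From day 3 to day 14, 4 genes passed and were lower (MYL9, TAGLN, ACTA2 and FLNA), beside 13.4% of all genes, 8.38% higher and 5.01% lower, with a median of −0.68. Without TMM, 8 of the 10 passed and were lower, and over all genes 606 were higher and 6600 lower. With the animal as a block, 7 genes were lower on day 14 than on day 3, with MYLK, CALD1 and VCL added, beside 23.7% of all genes, 9.75% lower. When RNA integrity was a covariate, TUBA4A alone was past the threshold from day 0 to day 14 (19.9% of all genes), and TAGLN alone from day 3 to day 14 (6.05%). The log2 fold changes of the genes then lost stayed near their size for MYL9 (0.95 and −0.91), TUBB1 on day 14 (0.81), ACTA2 (−0.99) and FLNA (−0.55) in the last step, and TPM1 on day 14 (0.32). Without the 2 libraries of many genes, MYL9 was lost from day 0 to day 14 (3 genes passed, beside 37.0% of all genes), and TPM1 was added as a gene higher on day 14 than on day 3 (5 passed, beside 17.4%). The day 3 and day 14 contrasts share the day 0 libraries, so their values stand side by side and are not set against each other.

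**Figure D1:**
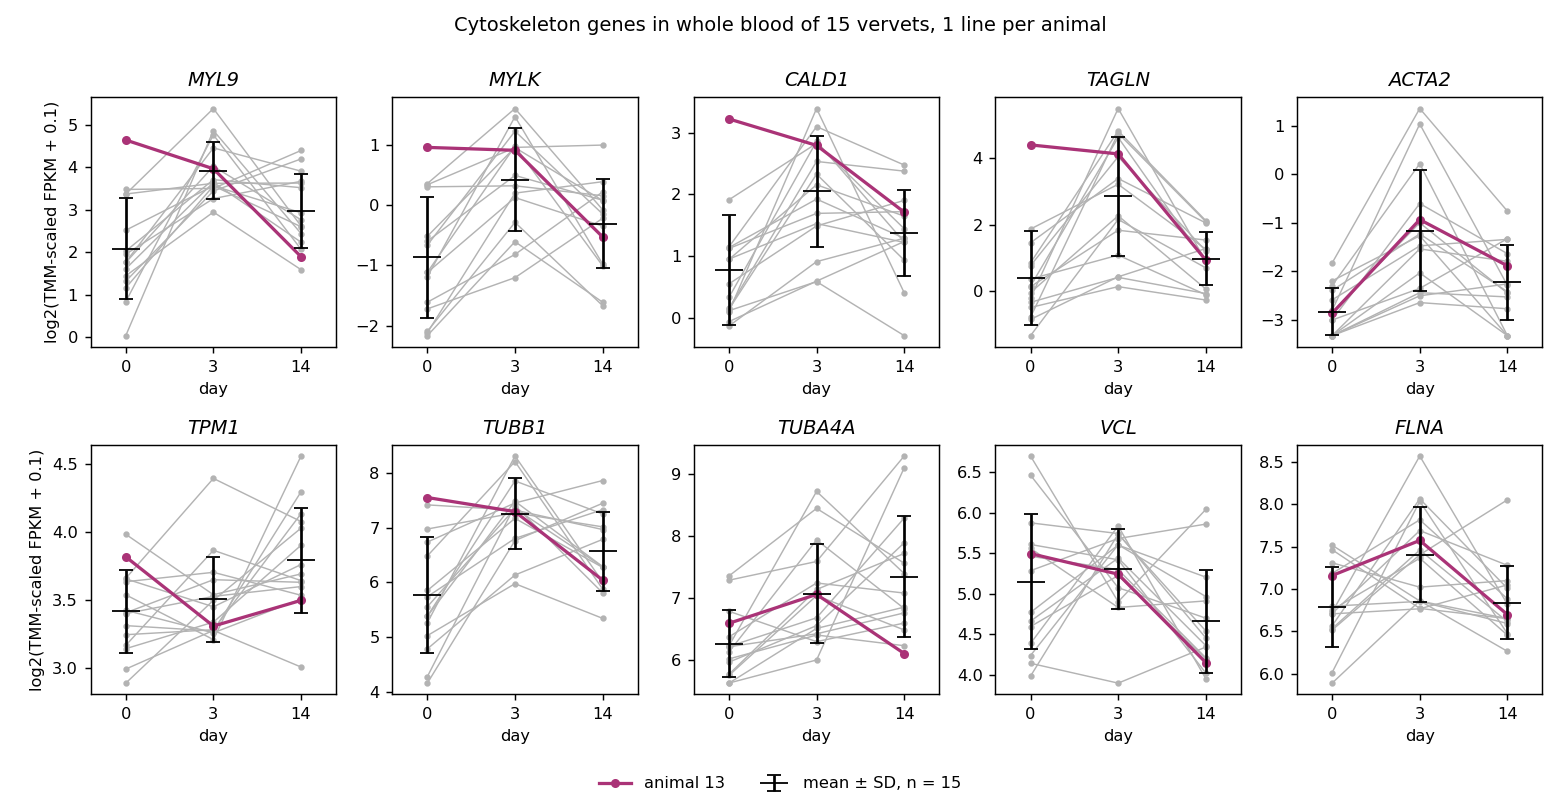
Level of each of the 10 genes in every library, as log2 of TMM-scaled FPKM plus 0.1 (vertical axis, own range per panel) by day (horizontal axis); each grey line is 1 animal, the purple line is animal 13, and black marks show the mean ± SD of 15 animals. MYL9, MYLK, CALD1, TAGLN, ACTA2 and TUBB1 peak on day 3 in most animals, TPM1 stays in a narrow range, and animal 13 starts highest for TAGLN (21.3 FPKM) and MYL9 (25.0 FPKM).

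MYL9 encodes the regulatory light chain of nonmuscle and smooth muscle myosin, the part that is phosphorylated to switch contraction on, and it is close enough in sequence to MYL12A and MYL12B that fragments could be shared in counting. Its level on day 0 ran from 1.38 to 25.0 FPKM with a median of 3.74. On day 3 the range was 8.68 to 53.0 with a median of 15.6, and on day 14 it was 2.99 to 17.1 with a median of 5.99. Every day 3 value lay above the day 0 median, although the ranges overlapped, with the day 0 values of animals 4, 13 and 14 above the lowest on day 3. The log2 fold change was 1.83 ± 0.33 (SE) on day 3 vs. day 0, with 14 of 15 animals higher. It was 0.88 ± 0.33 from day 0 to day 14 (13 animals higher), or 0.76 and no longer past the threshold without the 2 libraries of many genes and 0.46 without TMM, and −0.95 ± 0.33 from day 3 to day 14 (11 animals lower).

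MYLK, the calcium and calmodulin dependent kinase that phosphorylates this light chain, was some way lower per unit of length. It ranged from 0.139 to 1.86 FPKM on day 0 (median 0.413), from 0.455 to 3.74 on day 3 (median 1.44) and from 0.169 to 1.18 on day 14 (median 0.664). These levels still rested on 34 or more fragments in every library. The 15 day 3 values were all above the day 0 median and 5 of them were above the highest day 0 value. MYLK changed by 1.28 ± 0.31 on day 3 vs. day 0 on the log2 scale, with 14 animals higher, and by 0.55 ± 0.31 on day 14 vs. day 0, with 11 animals higher (0.21 without TMM, 8 animals higher in deposited FPKM).

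CALD1 encodes caldesmon, which binds actin and tropomyosin and restrains the myosin motor. Its median was 1.64 FPKM on day 0, 4.52 on day 3 and 2.24 on day 14. Values ran from 0.867 to 9.32 on day 0, from 1.66 to 9.39 on day 3, and from 0.739 to 4.78 on day 14. After TMM day 3 was the highest of the 3 days in 10 of 15 animals, while the highest day 0 value came within reach of the highest on day 3. The log2 fold changes were 1.27 ± 0.30 on day 3 vs. day 0 (14 animals higher), 0.60 ± 0.30 from day 0 to day 14 (12 higher, 0.19 without TMM) and −0.67 ± 0.30 from day 3 to day 14 (11 lower).

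TAGLN, coding for transgelin, an actin binding protein abundant in smooth muscle, had the widest spread among the 10 on day 0 and on day 3 (SD of 1.41 and 1.81 on the log2 scale), but not on day 14 (0.81, against 0.97 for TUBA4A). On day 0 it ranged from 0.1999 to 21.3 FPKM with a median of 1.33, which rested on 6 to 466 fragments. On day 3 the range was 1.34 to 41.0 with a median of 11.3, and on day 14 it was 0.416 to 3.90 with a median of 1.70. In 13 of 15 animals day 3 was the highest day, and 5 day 14 values lay below the lowest day 3 value. The log2 fold change was 2.47 ± 0.50 on day 3 vs. day 0 and −1.89 ± 0.50 from day 3 to day 14, with 14 animals higher and then 14 lower. From day 0 to day 14 it was 0.58 ± 0.50 (12 animals higher), but 0.18 without TMM, with the deposited FPKM higher in 8 animals. Single animals differed widely on day 3: TAGLN went from 0.676 to 41.0 FPKM in animal 11, on 18 and 1061 fragments, but from 0.743 to 1.34 in animal 8, on 20 and 34 fragments.

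ACTA2, the actin isoform of smooth muscle, was close to the limit of detection. Of the 45 libraries, 8 held 0 fragments of it, 5 on day 0 and 3 on day 14, and a count of 0 allows up to 3 fragments, or 0.0829 to 0.128 FPKM at their depth (counting error only). Summed over the 15 animals, day 0 gave 25 fragments, day 3 gave 297 and day 14 gave 63. Day 3 was therefore the day of most ACTA2 fragments, and 10 of its 15 values lay above the highest day 0 value. The median was 0.0335 FPKM on day 0 (range 0 to 0.206), 0.312 on day 3 (0.0683 to 2.03) and 0.0986 on day 14 (0 to 0.356). The log2 fold change on day 3 vs. day 0 was 1.67 ± 0.32 with 15 of 15 animals higher, and it depended on the constant added before the logarithm, with 3.11 for 0.01 and 0.47 for 1. Animals 5 and 6 gave 73 and 83 of the day 3 fragments. In RefSeq's assembly mChlSab1.0.hap1 the span of ACTA2 overlaps that of another protein-coding locus (MYL9, MYLK and CALD1 overlap noncoding loci), and actin genes are near copies of each other, so fragments assigned to ACTA2 at this level are uncertain.

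TPM1, a tropomyosin that lies along actin filaments, showed little movement. It ranged from 8.64 to 17.7 FPKM on day 0 (median 11.6), from 9.21 to 15.1 on day 3 (median 12.3) and from 8.73 to 14.0 on day 14 (median 11.5). The 3 ranges lay almost on top of each other. After TMM the log2 fold change was 0.09 ± 0.12 on day 3 and 0.37 ± 0.12 on day 14, both against day 0, with 9 and 12 animals higher. Without TMM the day 14 value was −0.05, and the deposited FPKM was higher on day 14 in 7 of 15 animals, so the sign of this change rested on the scaling.

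TUBB1, the beta tubulin of the megakaryocyte lineage, was the tubulin gene that followed the day 3 pattern. Its level ran from 23.6 to 241 FPKM on day 0 with a median of 55.1. On day 3 it ran from 74.8 to 379 with a median of 177, and on day 14 from 41.7 to 164 with a median of 75.2. Every day 3 value lay above the day 0 median, 2 of them above the highest day 0 value, and no day 14 value reached the day 3 median. The log2 fold change was 1.48 ± 0.30 on day 3 vs. day 0 (13 animals higher), 0.80 ± 0.30 from day 0 to day 14 (12 higher, 0.38 without TMM) and −0.68 ± 0.30 from day 3 to day 14 (11 lower).

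TUBA4A, an alpha tubulin that pairs with beta tubulin in the microtubules of platelets and other cells, had a higher median on both later days than on day 0. It ranged from 48.1 to 124 FPKM on day 0 (median 81.2), from 86.9 to 437 on day 3 (median 131) and from 78.5 to 335 on day 14 (median 118). On both later days 14 or more of the 15 values lay above the day 0 median, and after TMM the highest day was day 3 in 7 animals and day 14 in another 7 (9 and 5 in deposited FPKM). The log2 fold change was 0.80 ± 0.28 on day 3 vs. day 0, with 14 animals higher, and 1.08 ± 0.28 on day 14 vs. day 0, with 13 higher. Between day 3 and day 14 it was 0.28 ± 0.28 (8 animals higher), and −0.11 without TMM, with 6 animals higher in deposited FPKM. Alpha tubulin genes are near copies of each other, so fragments could have been shared among them in the authors' counting.

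VCL encodes vinculin, which couples integrin adhesions to actin. Its median was 39.4 FPKM on day 0 (range 17.8 to 81.2), 45 on day 3 (17.6 to 70.8) and 20.8 on day 14 (12.1 to 35.4). No day 14 value reached the median of day 0 or of day 3, and 4 lay below the lowest value of either. On the log2 scale VCL changed by 0.15 ± 0.24 on day 3 vs. day 0, with 7 animals higher and 8 lower. Between day 0 and day 14 the change was −0.49 ± 0.24 (10 animals lower), and −0.91 without TMM, which passed the threshold.

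FLNA encodes filamin A, which crosslinks actin and tethers the von Willebrand factor receptor of platelets. It ranged from 67.1 to 257 FPKM on day 0 (median 122), from 73.2 to 420 on day 3 (median 176) and from 55.8 to 249 on day 14 (median 85.0). After TMM day 3 was the highest day in 10 of 15 animals, and all 3 ranges overlapped. The log2 fold change was 0.62 ± 0.18 on day 3 vs. day 0 (12 animals higher) and −0.57 ± 0.18 from day 3 to day 14 (12 lower). By day 14 it was 0.05 ± 0.18 from day 0, with 8 animals higher. This near zero value changed sign without TMM (−0.38), without animal 6 (−0.06) and without the 2 libraries of many genes (−0.01).

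**Figure D2:**
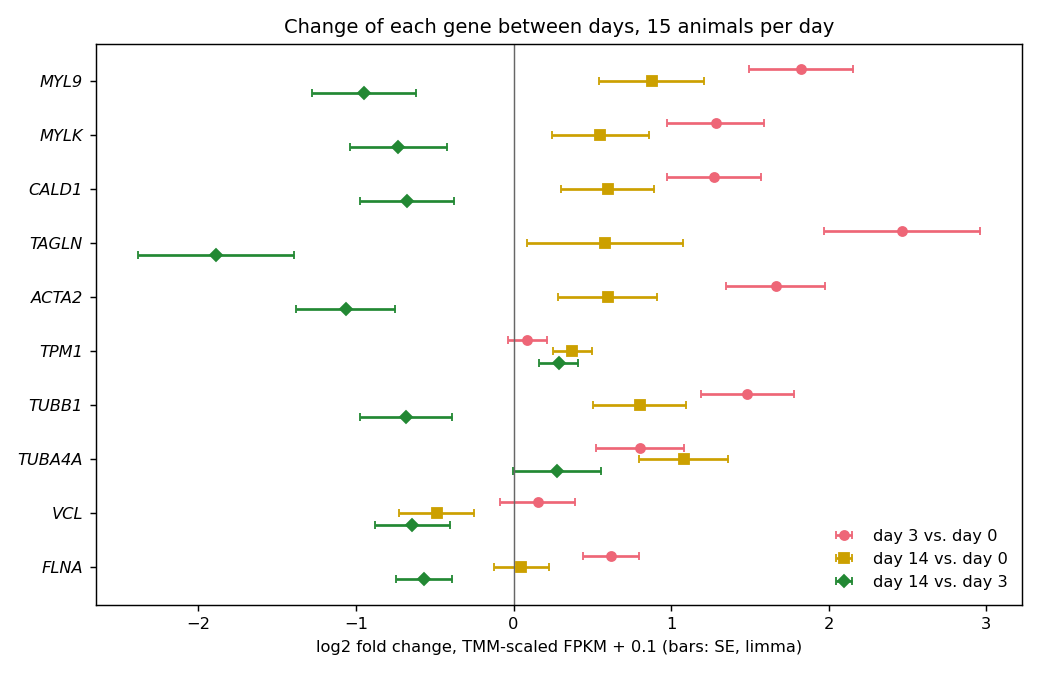
Log2 fold change of each gene (horizontal axis, TMM-scaled FPKM plus 0.1) for the 3 pairs of days; points are limma estimates over 15 animals per day and bars are standard errors. TAGLN lies farthest from 0 in both directions (2.47 and −1.89), 7 genes share a day 3 high with a lower day 14, and TPM1, TUBA4A and VCL depart from it.

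Animal 13 was the main exception to the day 3 pattern. It had the highest day 0 level of MYL9, MYLK, CALD1 and TAGLN, with TAGLN at 21.3 FPKM on day 0, 19.7 on day 3 and 2.06 on day 14. Its MYL9 was 25.0, 17.4 and 4.13 FPKM on the same days. After TMM, 3 of the 10 genes were higher on day 3 than on day 0 in this animal (4 in deposited FPKM), and 1 was higher on day 14 on both scales. Animals 1, 5, 6, 8, 9 and 12 were higher on day 3 for all 10 genes after TMM, but in deposited FPKM animals 1 and 5 were so for 9 of the 10. Averaged over the 10 genes after each was standardised over the 45 libraries, the day 0 score was above 0 in animals 13, 14 and 15 (0.78, 0.06 and 0.33) and below 0 in the other 12. Without animal 13 the log2 fold change of MYL9 on day 14 vs. day 0 would be 1.14, against 0.88 with it.

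Across the 45 libraries the genes fell into sets that moved together, given here as a description, since the points share animals, libraries, depth and scaling. MYL9, MYLK, CALD1, TAGLN and TUBB1 correlated with each other with Pearson r from 0.67 to 0.91 over their 10 pairs, and from 0.50 to 0.88 after the time means were removed. The closest pairs were TUBB1 with MYL9 (r = 0.91) and TUBB1 with MYLK (r = 0.91). TAGLN was closest to CALD1 (r = 0.86) and ACTA2 to TAGLN (r = 0.64). VCL and FLNA had r = 0.62. TPM1 and TUBA4A had r = 0.77 on scaled values but r = 0.15 on deposited FPKM, so this likeness rested on the scaling.

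**Figure D3:**
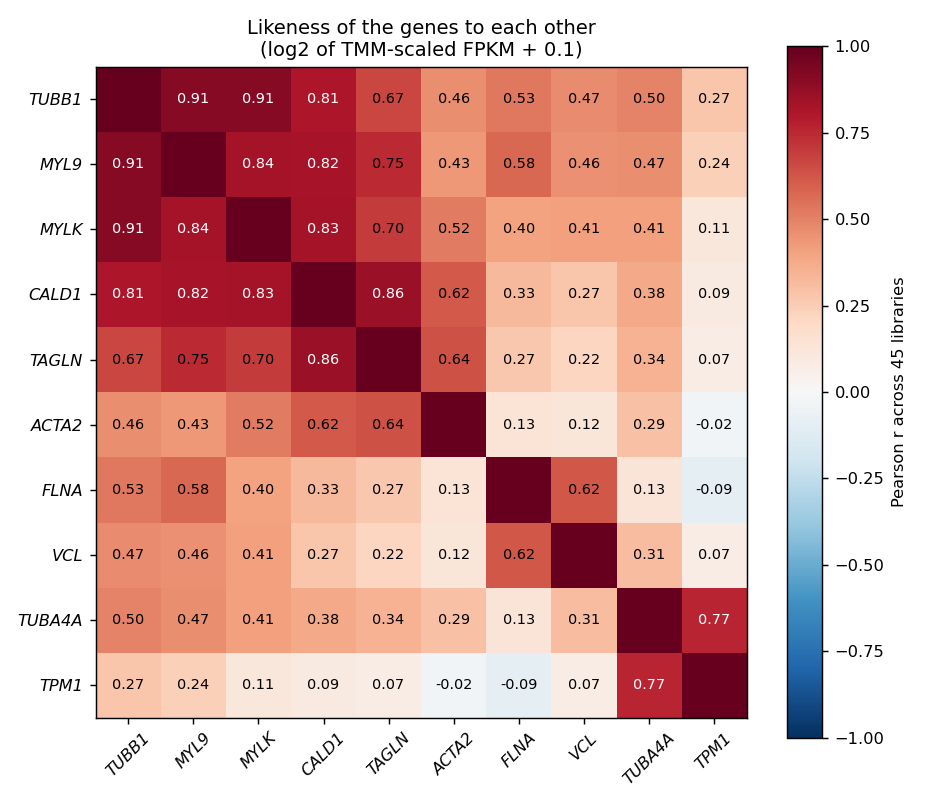
Pearson r between each pair of the 10 genes across 45 libraries, on log2 of TMM-scaled FPKM plus 0.1; red is positive and blue negative. TUBB1, MYL9, MYLK, CALD1 and TAGLN form a block with r of at least 0.67, and VCL with FLNA (0.62) and TUBA4A with TPM1 (0.77) lie outside it.

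The name platelet cytoskeleton was checked against blood cell markers. The 19 platelet markers measured, among them the integrin chains ITGA2B and ITGB3 and the collagen receptor GP6, were present in every library, with a summed level of 437 to 4984 FPKM on day 0, 959 to 4963 on day 3 and 576 to 2621 on day 14. TUBB1 was the gene most like their mean (r = 0.97 over 45 libraries, and 0.95 with time means removed). MYLK, MYL9, CALD1 and TAGLN followed with r of 0.91, 0.89, 0.81 and 0.63, and these hardly moved on deposited FPKM (0.90, 0.89, 0.81 and 0.67). With time means kept, ACTA2 (r = 0.46), FLNA (0.50), TUBA4A (0.45), VCL (0.44) and TPM1 (0.24) were less like the platelet markers. With time means removed, MYLK, MYL9, CALD1 and TAGLN had r of 0.87, 0.83, 0.72 and 0.46, and TAGLN was then below VCL (0.54).

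VCL was most like the neutrophil markers (r = 0.67, and 0.68 on deposited FPKM), and TUBA4A was most like the erythroid markers (r = 0.83, and 0.68 on deposited FPKM). TPM1 had r = 0.79 with the erythroid markers on scaled values and 0.01 on deposited FPKM. FLNA had r of 0.61 with the monocyte markers and 0.62 with the smooth muscle list on deposited FPKM, and 0.40 and 0.42 on scaled values. On scaled values the platelet list was still the one FLNA was most like (0.50), but with time means removed smooth muscle came first (0.42, against 0.35 for platelet and 0.35 for monocyte markers). The platelet list was also the one ACTA2 was most like (0.46, but 0.15 with time means removed). TUBA4A, TPM1 and VCL were more like another list than the platelet one on scaled values, so likeness to the markers does not bear out the label platelet for these 3, and for FLNA and ACTA2 it is weak.

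**Figure D4:**
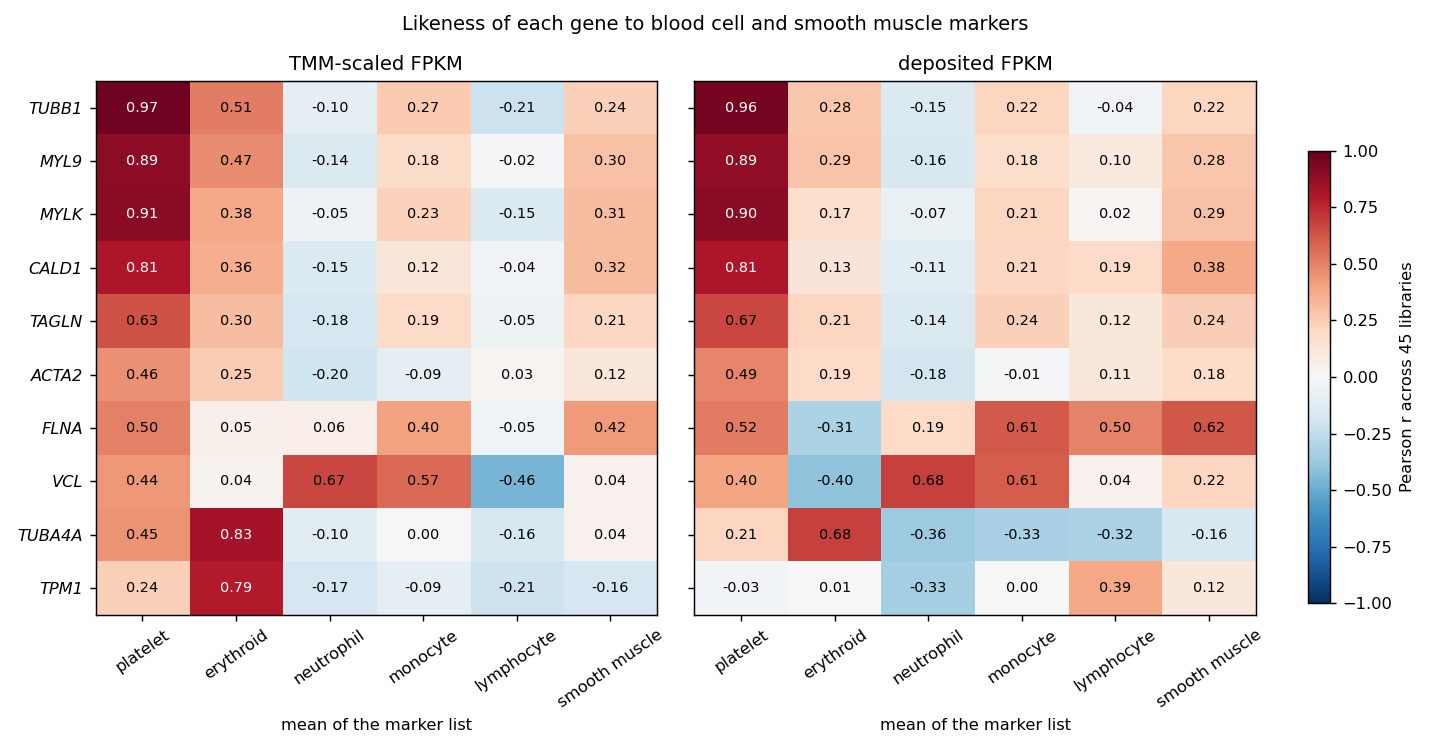
Pearson r across 45 libraries between each of the 10 genes (rows) and the mean log2 level of 6 marker lists (columns), on TMM-scaled FPKM (left) and on deposited FPKM (right). The platelet column is strongest for TUBB1 (0.97 and 0.96), MYLK, MYL9 and CALD1 on both scales, whereas the erythroid value of TPM1 goes from 0.79 to 0.01.

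These marker lists moved with time as well. Of the 19 platelet markers tested, 13 rose on day 3 vs. day 0 (68.4% beside 12.2% of all genes, median log2 fold change over the list 1.31), with ITGA2B at 2.19 ± 0.37 (adjusted p = 0.000516 from limma, 14 of 15 animals higher) and ITGB3 at 2.03 ± 0.37 (adjusted p = 0.000737, 13 higher). By day 14, 6 of the 19 had risen from day 0 (median 0.70), among them GNG11 (1.40 ± 0.32, adjusted p = 0.000693). At 31.6% this was under the 36.0% of all genes called in either direction and above the 18.8% called higher. With the animal as a block 12 rose, beside 44.0% of all genes, and with RNA integrity as a covariate 3 rose, beside 19.9%. Without TMM 4 rose and 1 fell, beside 49.5% of all genes. From day 3 to day 14, ITGA2B, ITGB3 and SELP fell (15.8% beside 13.4% of all genes, median −0.63, SELP not with RNA integrity as a covariate). In this step 10 fell and 1 rose with the block, beside 23.7% of all genes, and 6 fell without the 2 libraries of many genes, beside 17.4%. Without TMM 12 fell (median −1.02, beside 38.4% of all genes). Of the erythroid list, 6 of 9 genes rose on day 3 vs. day 0 (66.7% beside 12.2% of all genes, median 1.5). By day 14 vs. day 0, 9 of 9 rose (beside 36.0% of all genes, median 2.82), also with RNA integrity as a covariate (beside 19.9%). Its summed level ran from 583 to 20940 FPKM on day 0, 4828 to 25620 on day 3 and 8956 to 34730 on day 14. Of the neutrophil list, 7 of 10 genes fell on day 3 vs. day 0 (70.0% beside the same 12.2%, median −1.18) and 10 of 10 by day 14 vs. day 0 (beside 36.0% of all genes, median −1.39). With RNA integrity as a covariate 3 and 4 of the 10 passed, beside 7.66% and 19.9% of all genes. The neutrophil list had sums of 264 to 2048, 117 to 853 and 86.7 to 350 FPKM on the 3 days. The part of platelet, erythroid and neutrophil RNA in the changes of the 10 genes was not tested.

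**Figure D5:**
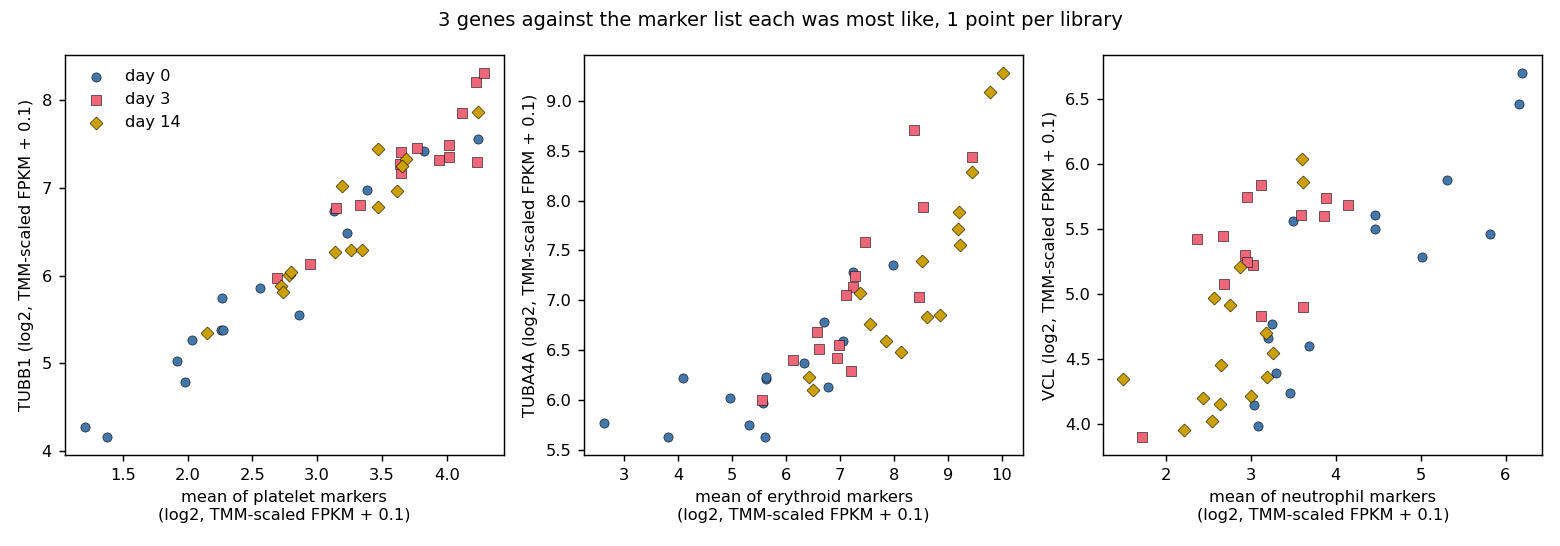
TUBB1 against the mean of the platelet markers, TUBA4A against the erythroid markers and VCL against the neutrophil markers, all as log2 of TMM-scaled FPKM plus 0.1; each point is 1 of 45 libraries, coloured by day. TUBB1 lies close to a line (r = 0.97), TUBA4A climbs mainly at high erythroid levels (r = 0.83), and VCL is more scattered (r = 0.67).

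Some of the genes moved farther than the mean of the platelet markers within the same animals. With 0.1 added before the logarithm, only TAGLN moved farther than each single marker (0.03 for GP5 to 2.19 for ITGA2B). The place of ACTA2 in this order depended on that constant. The mean of the platelet markers changed by 1.14 ± 0.75 (SD over 15 animals, log2) on day 3 vs. day 0 and was higher in 14. TAGLN exceeded this change by 1.33 ± 1.39 (11 of 15 animals) and MYL9 by 0.68 ± 0.79 (12 animals). TUBB1 exceeded it by 0.34 ± 0.37 (12 animals), while MYLK (0.14 ± 0.42) and CALD1 (0.13 ± 0.44) stayed close to it. VCL fell short of the platelet markers in 15 of 15 animals (difference −0.99 ± 0.72), and TPM1 in 14 (−1.05 ± 0.61). From day 0 to day 14 the platelet marker mean changed by 0.65 ± 0.95, and TAGLN, MYLK, CALD1 and TUBB1 differed from it by −0.07, −0.10, −0.05 and 0.15, with ACTA2 at −0.05. MYL9 (0.23) and TUBA4A (0.43) lay above it in 10 animals each. VCL lay below it in 14 animals (−1.14 ± 0.80), FLNA in 12 (−0.60 ± 0.70) and TPM1 in 11 (−0.27). These differences use the contrasts on which the set was chosen and are a description.

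TAGLN, ACTA2, MYL9, MYLK and CALD1 are also smooth muscle genes, so markers of that tissue and of other vessel wall cells were read beside them. The 14 smooth muscle and mural cell markers summed to 2.002 to 7.8 FPKM on day 0, 2.02 to 9.22 on day 3 and 1.84 to 9.37 on day 14. At least 9 of the 14 had a median under 0.1 FPKM on each day, LMOD1 was at a median of 0 on all 3 days, and CNN1, SYNPO2 and NOTCH3 were also there on day 14. Of the 10 tested, PDGFRB and SYNM rose by day 3 and, with DES, by day 14 against day 0 (chosen after their values were seen, except DES), or 20% and 30.0% of the list beside 12.2% and 36.0% of all genes. With RNA integrity as a covariate PDGFRB alone passed on either contrast, without the 2 libraries of many genes DES did not pass (adjusted p = 0.0721), and without TMM none of the list did. The mean of the list had r = 0.21 with TAGLN, 0.12 with ACTA2, 0.30 with MYL9, 0.31 with MYLK and 0.32 with CALD1 (0.24, 0.18, 0.28, 0.29 and 0.38 on deposited FPKM). Of the 6 endothelial markers tested, CLDN5 (1.22 ± 0.27, adjusted p = 0.0029 from limma) and EGFL7 (0.97 ± 0.22, adjusted p = 0.00287) rose on day 3 vs. day 0. They made 33.3% of the list, beside 12.2% of all genes. KDR (−0.11), TEK (−0.07), ERG (0.06) and TIE1 (0.26) did not pass, and CDH5, EMCN and ROBO4 were too low to be tested. From day 0 to day 14 EGFL7 alone rose (0.90 ± 0.22, adjusted p = 0.000984, 13 animals higher), or 16.7% beside 36.0% of all genes. Without TMM this call was lost (adjusted p = 0.0502). The 7 fibroblast markers summed to at most 10.9 FPKM in any library and the 9 skeletal muscle markers to at most 4.42. In neither list did a gene pass on any contrast with TMM and all 45 libraries, and at an unadjusted p-value under 0.05 the count was 0 for fibroblasts and 1 for skeletal muscle on day 3 vs. day 0. From day 0 to day 14, MYH1 passed as lower without the 2 libraries of many genes (adjusted p = 0.0423), and ACTA1 did without TMM (adjusted p = 0.0282).

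The genes most like the mean profile of the 10, among 12950 genes of at least 1 FPKM, were CTTN (r = 0.90), GNAZ (0.90), RGS6 (0.89), ITGB5 (0.88), RAB6B (0.88), CLU (0.88), ABLIM3 (0.87), ITGB3 (0.87), GP6 (0.87) and EHD3 (0.87), each over 45 libraries. CTTN encodes cortactin, which binds branched actin, ABLIM3 an actin binding LIM protein, and CLU clusterin of the platelet granule. Gene by gene the nearest profiles differed. TUBB1 was nearest to GNAZ (0.95), F2R (0.94) and GP9 (0.94), MYL9 to RAB6B (0.91), ITGB5 (0.91) and ABLIM3 (0.90), and MYLK to TREML1 (0.93) and SERHL2 (0.93). TAGLN was nearest to DACT3 (0.84), PDE5A (0.81) and PRKAR2B (0.77), and CALD1 to DACT3 (0.90), SMIM1 (0.88) and DTD1 (0.87). FLNA was nearest to MYH9 (0.92), the heavy chain of nonmuscle myosin, and to TLN1 (0.91), the talin that activates integrins. VCL was nearest to MTMR3 (0.88), SEMA4A (0.85) and KIAA0513 (0.85). TUBA4A was nearest to DDB1 (0.92), CCNDBP1 (0.92) and ARRDC2 (0.91), and TPM1 to CMC2 (0.86), DNAJB6 (0.86) and UBQLN1 (0.85). All these profiles were compared on scaled values alone. On that scale TPM1 and TUBA4A had r of 0.80 and 0.77 with the negative log2 of the TMM factor itself (−0.32 and 0.50 on deposited FPKM). Their nearest profiles may therefore rest on the scaling. For ACTA2 the highest r was 0.63 (FAM69B).

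Other genes of the same machinery gave a mixed picture. Of 86 further genes tested for the actomyosin motor, actin filaments, integrin linkers and microtubules, 11 rose and 3 fell on day 3 vs. day 0, with a median log2 fold change over the 86 of 0.12. The 14 made 16.3% of the group, beside 12.2% of all genes. With the animal as a block 22 rose and 8 fell (19.2% of all genes passed). From day 0 to day 14, 18 rose and 15 fell (median 0.04), which at 38.4% was close to the 36.0% of all genes. Without TMM 7 rose and 41 fell, beside 49.5% of all genes, and with RNA integrity as a covariate 17 passed, beside 19.9%. From day 3 to day 14, 8 rose and 9 fell (median −0.02, 19.8% beside 13.4% of all genes). In this step 13 rose and 17 fell with the block, beside 23.7% of all genes, and 3 rose and 47 fell without TMM, beside 38.4%. Without TMM the rises and falls from day 0 to day 14 were 5 and 7 in the actomyosin group, 1 and 17 among actin filament genes, 0 and 8 among integrin linkers and 1 and 9 among microtubule genes.

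Integrin linkers belong with VCL and FLNA by function. Of 16 tested, 5 rose on day 3 vs. day 0 and none fell (31.2% beside 12.2% of all genes), namely PARVB (0.69 ± 0.13, adjusted p = 0.00084 from limma, 14 of 15 animals higher), FERMT3 (0.56 ± 0.14, adjusted p = 0.00557, 14 higher), PDLIM1 (0.71 ± 0.18, adjusted p = 0.00974, 15 higher), TLN1 and CSRP1. TLN1 was lost without the 2 libraries of many genes (adjusted p = 0.0696) and, with CSRP1, without TMM (0.11 and 0.313), and CSRP1 was lost with RNA integrity as a covariate (0.0741). The animal as a block gave 7 rises and 1 fall (LPP), beside 19.2% of all genes. FERMT3 encodes kindlin-3, which works with talin to activate integrins in blood cells. Against day 0, ZYX (−1.06 ± 0.25, adjusted p = 0.000834), LASP1 (−0.69 ± 0.19, adjusted p = 0.00353), LPP (−0.65 ± 0.14, adjusted p = 0.000356) and PXN were lower on day 14, and CSRP1 was higher (5 of 16, or 31.2%, beside 36.0% of all genes). With RNA integrity as a covariate ZYX and LPP passed, and LASP1, PXN and CSRP1 did not (adjusted p = 0.0675, 0.168 and 0.295). CSRP1 turned sign without TMM (−0.14) and did not pass. From day 3 to day 14, PARVB, TLN1, FERMT3, LIMS1 and FHL1 fell, with TLN1 at −0.84 ± 0.20 (adjusted p = 0.008, 12 animals lower), again 31.2%, beside 13.4% of all genes. LIMS1 did not pass with the covariate (adjusted p = 0.0509).

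In the actomyosin group of 19 tested genes, 3 rose on day 3 vs. day 0 and 2 fell, or 26.3% beside 12.2% of all genes. ARHGEF12 changed by 1.33 ± 0.29 (adjusted p = 0.00287 from limma, 14 animals higher) and LIMK1 by 0.58 ± 0.14 (adjusted p = 0.00564), and CALM3 was the other rise. PPP1R12A, the targeting subunit of myosin phosphatase, fell (−0.45 ± 0.10, adjusted p = 0.00408, 13 animals lower), as did ROCK1. Without TMM, LIMK1 and ROCK1 did not pass (adjusted p = 0.1 and 0.0672). By day 14, 9 had risen from day 0 and 4 had fallen (68.4% beside 36.0% of all genes), and 8 passed with RNA integrity as a covariate (beside 19.9%). PPP1CB, the phosphatase catalytic subunit, went up by 1.95 ± 0.34 (adjusted p = 2.38e-05, 15 of 15 animals), CALM3 by 1.32 ± 0.19 (adjusted p = 1.95e-06) and ARHGEF12 by 1.70 ± 0.29 (adjusted p = 2.12e-05). From day 3 to day 14, 5 rose, among them MYL12B, PPP1CB and CALM3, and 1 fell (31.6% beside 13.4% of all genes). With RNA integrity as a covariate 2 passed, beside 6.05% of all genes, and without TMM 2 rose and 8 fell, beside 38.4%.

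Among 29 actin and actin filament genes, TPM4, the tropomyosin of platelets and other nonmuscle cells, rose on day 3 vs. day 0 (0.60 ± 0.13, adjusted p = 0.00207 from limma, 14 animals higher) and fell from day 3 to day 14 (−0.40 ± 0.13, adjusted p = 0.0333, 13 lower). WDR1 rose (0.42 ± 0.11, adjusted p = 0.00799, and 0.124 without TMM) and LCP1, the plastin of white cells, fell (−0.45 ± 0.15, adjusted p = 0.0408) on day 3 vs. day 0, so that 10.3% of the group passed, beside 12.2% of all genes. This share depended on the fit, since with the animal as a block 7 rose and 3 fell, or 10 of 29, beside 19.2% of all genes. By day 14, 2 of the 29 had risen from day 0, CNN3 (2.48 ± 0.55, adjusted p = 0.000427, 15 of 15 animals higher) and TMSB4X, and 5 had fallen, among them SVIL (−0.65 ± 0.15, adjusted p = 0.000615) and VASP (−0.58 ± 0.19, adjusted p = 0.0153). That made 24.1% beside 36.0% of all genes, and with RNA integrity as a covariate CNN3 and LCP1 alone passed. TMSB4X did not pass without TMM either (adjusted p = 0.99). ACTB and ACTN1 fell with TPM4 between day 3 and day 14, which at 10.3% was under the 13.4% of all genes, and with that covariate TPM4 alone passed (beside 6.05%). In this step the block gave 1 rise and 7 falls, beside 23.7% of all genes, and without TMM 21 fell, beside 38.4%.

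Of 22 further tubulin and microtubule genes, TUBB4B rose on day 3 vs. day 0 (0.51 ± 0.14, adjusted p = 0.015 from limma, 14 animals higher), and none fell (4.55% beside 12.2% of all genes). This call was lost with RNA integrity as a covariate (adjusted p = 0.053). The animal as a block gave 2 rises and 1 fall (TUBE1), beside 19.2% of all genes. Against day 0, 6 were higher and 2 lower on day 14, which at 36.4% was close to the 36.0% of all genes. DYNLL1, a dynein light chain, changed by 1.53 ± 0.25 (adjusted p = 1.23e-05, 14 animals higher), TBCE, a tubulin folding cofactor, by 0.43 ± 0.08 (adjusted p = 9.1e-05), and TUBB4B by 0.63 ± 0.14 (adjusted p = 0.000575). DYNLL1, TBCE and TUBD1 also rose between day 3 and day 14, which at 13.6% was close to the 13.4% of all genes. Of these TBCE alone passed with RNA integrity as a covariate (beside 6.05% of all genes). Without TMM, TBCE and TUBD1 turned sign in this last step (−0.05 and −0.08) and neither passed. TBCE (0.01) and TUBB4B (0.21) did not pass from day 0 to day 14 either without TMM.

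SRF, the transcription factor that drives actin cytoskeleton genes in muscle, was lower on day 14 together with MKL1 and MKL2, which act with it, 3 of the 4 genes tested in this group, beside 36.0% of all genes called and 17.3% called lower. SRF changed by −0.32 ± 0.10 from day 0 to day 14 (adjusted p = 0.0126 from limma, 11 of 15 animals lower), MKL1 by −0.43 ± 0.13 (adjusted p = 0.00813, 12 lower) and MKL2 by −0.28 ± 0.10 (adjusted p = 0.025, 11 lower). With RNA integrity as a covariate, SRF stayed past the threshold (adjusted p = 0.033) and MKL1 and MKL2 did not (0.208 and 0.375). None of the 4 genes of this group passed on day 3 vs. day 0, and at an unadjusted p-value under 0.05 the count was 0. The fourth, MYOCD, the coactivator of smooth and heart muscle, had a mean of 0.0260 FPKM and did not pass from day 0 to day 14 either (−0.03 ± 0.11, adjusted p = 0.833).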

How the data were processed

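Whole blood RNA was sequenced from stranded libraries after ribosomal and globin depletion. The authors demultiplexed with bcl2fastq 2.17, aligned to the Chlorocebus_sabeus reference genome with STAR and counted fragments with HTSeq (versions not given in the sources used here). Whether counting used strand is also not given. The deposited unit is FPKM. How the authors computed it is not given in the sources used here. Each FPKM above 0 gave a whole number of fragments under 1 length per gene and 1 total per library (within 0.005, plus rounding at high counts), for 100% of the 33635 genes above 0.

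TMM factors (0.538 to 1.49) were computed from these fragments. Log2(TMM-scaled FPKM + 0.1) was fitted with limma 3.58.1 (R 4.3.3), 1 mean per day, over 18753 genes with over 0.5 CPM in 3 or more libraries (at least 6.61 fragments in the smallest library), with Benjamini-Hochberg adjustment. Standard errors and adjusted p-values are from this main fit unless another is named, and it does not pair libraries by animal. With the animal as a block the SE of TAGLN was 0.40, against 0.50, and that of FLNA was 0.18 in both fits. The main fit was also run on simulated data. These had independent libraries, no animal effect and changes on day 3 alone, which is simpler than the real data, so nothing is read from them here. Replicates are separate animals. Libraries were paired by the animal label: deviations from day means correlated with a mean r of 0.328 within animals (45 pairs) and −0.0382 between animals (945 pairs). The members, lists and alternatives were chosen with earlier results of these data known. From each list the text names up to 3 called genes per contrast of at least 1 FPKM, and in small counts all genes, the latter chosen after values were seen. Alternatives covered scaling, pseudocount, filter, block, RNA integrity, variance trend and each animal left out. Names absent from the rows (CNN2, TUBA1C, TUBB2B, PF4) were not analysed here, and 7 list genes were matched by RefSeq gene ID.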

Additional observations from a re-analysis of the deposited data

How the results depend on the processing

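Call counts of all genes, the 10 genes, the other actin and microtubule genes and the platelet markers were taken under all these settings. So were the fold changes of the 10 genes. The other lists were counted only with the block, RNA integrity, no scaling or without the 2 libraries with many genes, and nearest profiles were not recomputed. Leaving out the 2 libraries with many genes was added after seeing the data. Depth limits ACTA2 most. Below, early stands for day 3 vs. day 0, late for day 14 vs. day 0 and last step for day 14 vs. day 3. Pairing libraries by animal as a block gave, over all genes, 3593 early calls, 8253 late and 4445 in the last step. The other actin and microtubule genes then had 30 calls early and 30 in the last step, platelet markers 12 late and 11 in the last step, and the 10 genes 7 in the last step. RNA integrity as a covariate gave 1436 early, 3730 late and 1135 last-step calls over all genes. It left 1 of the 10 genes, 17 of the other actin and microtubule genes and 3 platelet markers late, and 1 and 8 of the first 2 groups in the last step. Covariate and block together gave 4070 late calls over all genes, 1 of the 10 and 16 of the others, and in the last step 2 of the 10 and 6 platelet markers. The block changed no other summary by over 1.5 times.

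Without scaling the last step gave 7206 calls over all genes, 8 of the 10, 50 of the others and 12 platelet markers, and late 2 of the 10 passed. TPM1 then changed sign late (−0.048) and in the last step (−0.093), FLNA late (−0.38) and TUBA4A in the last step (−0.11). FLNA late was also negative without the 2 libraries (−0.0086), and lay between −0.056 (without animal 6) and 0.12 when each animal was left out. Without a filter on low values, 2 of the 10 passed late, with 6122 calls over all genes, and the last step gave 1637. Platelet markers in the last step numbered 5 with 1 added before the logarithm, 6 with a minimum mean of 1 FPKM and 6 without the 2 libraries.

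With each animal left out in turn, calls over all genes ranged from 1365 (without animal 2) to 2360 early and from 794 (without animal 8) to 3117 in the last step. The 10 genes ranged from 2 to 5 late and from 1 (without animal 9) to 5 in the last step, where the other actin and microtubule genes ranged from 7 (without animal 8) to 21 and platelet markers from 2 to 8. Late platelet markers ranged from 4 to 10 (without animal 13). Early counts for the 10 genes (6 to 8) and platelet markers (13 each time) stayed within 1.5 times the value given. The cause of these shifts was not tested.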
